A study of Homo sapiens with 24 samples.

Results

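Aminoacyl-tRNA synthetases were described here in 24 RNA-seq libraries of human mammary epithelial cells grown in 3 dimensions. They were chosen by name, as the protein-coding rows whose symbol is a one-letter amino acid code followed by ARS, with or without 1, 2 or 3, together with EPRS1, FARSA and FARSB. The rule found 38 of the 60668 rows of the count table, 21 for cytosolic and 17 for mitochondrial enzymes, and no measured value entered it. GARS1 and KARS1, whose genes give both the cytosolic and the mitochondrial enzyme, were counted as cytosolic.

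The cells were MCF-10A, an immortalised, non-tumour breast epithelial line, and MCF-10A MYC-ER, the same line with MYC fused to the hormone-binding domain of the oestrogen receptor. The fusion is inactive until 4-hydroxytamoxifen (4-OHT) binds it, so the MYC-ER line reports on switching MYC on and the parental line on 4-OHT without the fusion. Both lines were grown on Matrigel and given 1 µM 4-OHT for 0, 8, 24 or 48 h before a common harvest, with 3 replicates in each of the 8 groups. The 0 h cultures received no 4-OHT. The promoter behind the fusion, whether the MYC-ER line is 1 clone, and a group with solvent alone are not given in the sources used here.

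Each synthetase joins 1 amino acid to the tRNAs that read its codons, in 2 steps that use ATP, and so supplies the ribosome with its substrates. Most amino acids have a cytosolic enzyme and a separate nuclear-encoded one that is imported into mitochondria, where it serves the translation of the mitochondrial genome. In the cytosol, 8 of the enzymes here assemble with the scaffold proteins AIMP1, AIMP2 and EEF1E1 into the multi-synthetase complex. The enzymes fall into 2 structural classes with unrelated catalytic folds. Several cytosolic synthetase genes are known targets of ATF4, the transcription factor of the amino acid starvation response, through C/EBP-ATF elements, and MYC binds E-boxes at genes of protein synthesis.

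The 2 histidine synthetase genes are neighbours. HARS1 (cytosolic, chr5:140673905-140691370, minus strand) and HARS2 (mitochondrial, chr5:140691455-140699305, plus strand) point away from each other. By these RefSeq positions 84 bases lie between the 2 genes, at chr5:140691371-140691454 (plus strand, GC content 59.5%). In the GENCODE release 29 annotation the exons of the 2 genes instead share 437 bases, on opposite strands. Gene positions here and later are those of RefSeq on GRCh38, and the letters are from RefSeq on GRCh38.p14. Gene strands, transcript lengths, transcript GC content and exon overlaps are those of GENCODE release 29. The 84-base interval is shown whole because the cytosolic and the mitochondrial gene moved apart across it, as described with the 8 h values. No base in it is set in capitals.
HARS1 to HARS2 interval: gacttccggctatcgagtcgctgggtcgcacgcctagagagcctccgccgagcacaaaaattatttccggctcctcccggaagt

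A pair of motifs was read in the RefSeq promoter windows (250 bases before to 50 after each start, GRCh38.p14), on both strands. Windows were found for 30 of the 38 genes, 39 windows in all since some genes have several starts. The C/EBP-ATF element TGATGNAA was present in 8 of the 39 windows (20.5%), against 3.62% of all 35116 windows. These belonged to 8 genes, 7 cytosolic and 1 mitochondrial. The E-box CACGTG was present in 5 of the 39 windows (12.8%, from 4 genes), against 7.26% of all windows. The EARS2 site was counted more than once, because overlapping windows from different starts hold the same bases. A match describes letters only. Genes without a window included AARS2, LARS1, TARS3, VARS1, VARS2 and YARS1. IARS1 was the gene with both, at places that do not overlap. The C/EBP-ATF matches of CARS1 and TARS1 and the E-box matches of CARS2 and EARS2 are not shown. The elements below are the other matches, 5′ to 3′ on the gene's strand, with the motif in capitals.
AARS1 (chr16:70289675-70289704, minus strand): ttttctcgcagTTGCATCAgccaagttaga
GARS1 (chr7:30594834-30594863, plus strand): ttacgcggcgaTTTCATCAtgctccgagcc
IARS1 (chr9:92293692-92293721, minus strand): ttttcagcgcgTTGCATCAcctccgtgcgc
MARS1 (chr12:57488053-57488082, plus strand): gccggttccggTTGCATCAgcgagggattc
NARS1 (chr18:57621804-57621833, minus strand): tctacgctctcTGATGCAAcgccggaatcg
YARS2 (chr12:32756076-32756105, minus strand): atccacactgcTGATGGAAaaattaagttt
IARS1 E-box (chr9:92293867-92293894, minus strand): ggttcgttttcCACGTGgaggcgcaaaa
MARS2 E-box (chr2:197705347-197705374, plus strand): tgcgcctctcaCACGTGctgtcagaacg

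Libraries held 136860029 to 182438505 counts, and the lowest count of any synthetase in any library was 946, so all 38 were tested. All 10 epithelial markers were detected in both lines, and PTPRC, CD3E, CDH5 and ADIPOQ, which define immune, endothelial and fat cells, had 0 to 2 counts per library. The 4 immune markers summed to 4.2 to 23.6 CPM, nearly all CD68, the 3 endothelial markers to at most 2.32 and the 2 fat cell markers to at most 1.71. The 5 fibroblast markers, led by COL1A1 and DCN, summed to 370 to 377 CPM (each gene's counts as a share of the scaled library total, on the usual CPM scale) in untreated MYC-ER cells. After 8 h the sum was 102 to 109, after 24 h 79.9 to 91.8 and after 48 h 121 to 130. Parental libraries ranged from 77.3 to 133. LUM, another of them, stayed at or under 0.304 CPM. Transcripts of the mitochondrial genome took 9.24 to 9.71% of counts in MYC-ER cells at 0 h and 5.61 to 6.58% at 8 h, and 3.86 to 7.28% in parental cells at 0 h. The part of these shifts in the changes from 0 h described here was not tested. MYC itself averaged 387, 795, 321 and 248 CPM in MYC-ER cells at 0, 8, 24 and 48 h, and whether these counts include the fusion is not given in the sources used here. Levels are relative to the whole library, and in bulk samples fewer cells and less RNA per cell cannot be told apart.

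Compared per kilobase of the principal transcript, cytosolic transcripts were the more abundant. In parental cells at 0 h the cytosolic enzymes ran from 2.63 CPM per kb for TARS3, a relative of TARS1, to 109 ± 15.1 (SD, n = 3) for the serine enzyme SARS1. The mitochondrial ones ran from 3.53 ± 0.225 for the proline enzyme PARS2 up to the isoleucine enzyme IARS2, the highest of all 38 by its mean. IARS2, SARS1 and KARS1 (106 ± 12.2) led the order and did not differ beyond their spread. IARS2 and CARS2 (80.5 ± 10.9) were the mitochondrial members above HARS2 (39.9 ± 2.31), and the other 14 stood below it.

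After 8 h of 4-OHT in MYC-ER cells 29 synthetase transcripts rose, 4 fell and 5 did not pass the threshold, an adjusted p of 0.05 in edgeR's quasi-likelihood test. Over all 22158 genes tested, 32.2% rose and 35.4% fell. The median log2 change of the 38 was 0.70, against -0.10 for all genes. Every cytosolic enzyme passed: 19 rose and 2 fell, with a median of 0.99. Among the mitochondrial enzymes 10 rose, 2 fell and 5 did not pass, with a median of 0.38. The plot of changes by gene shows both sets at the 3 times.

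**Figure D1:**
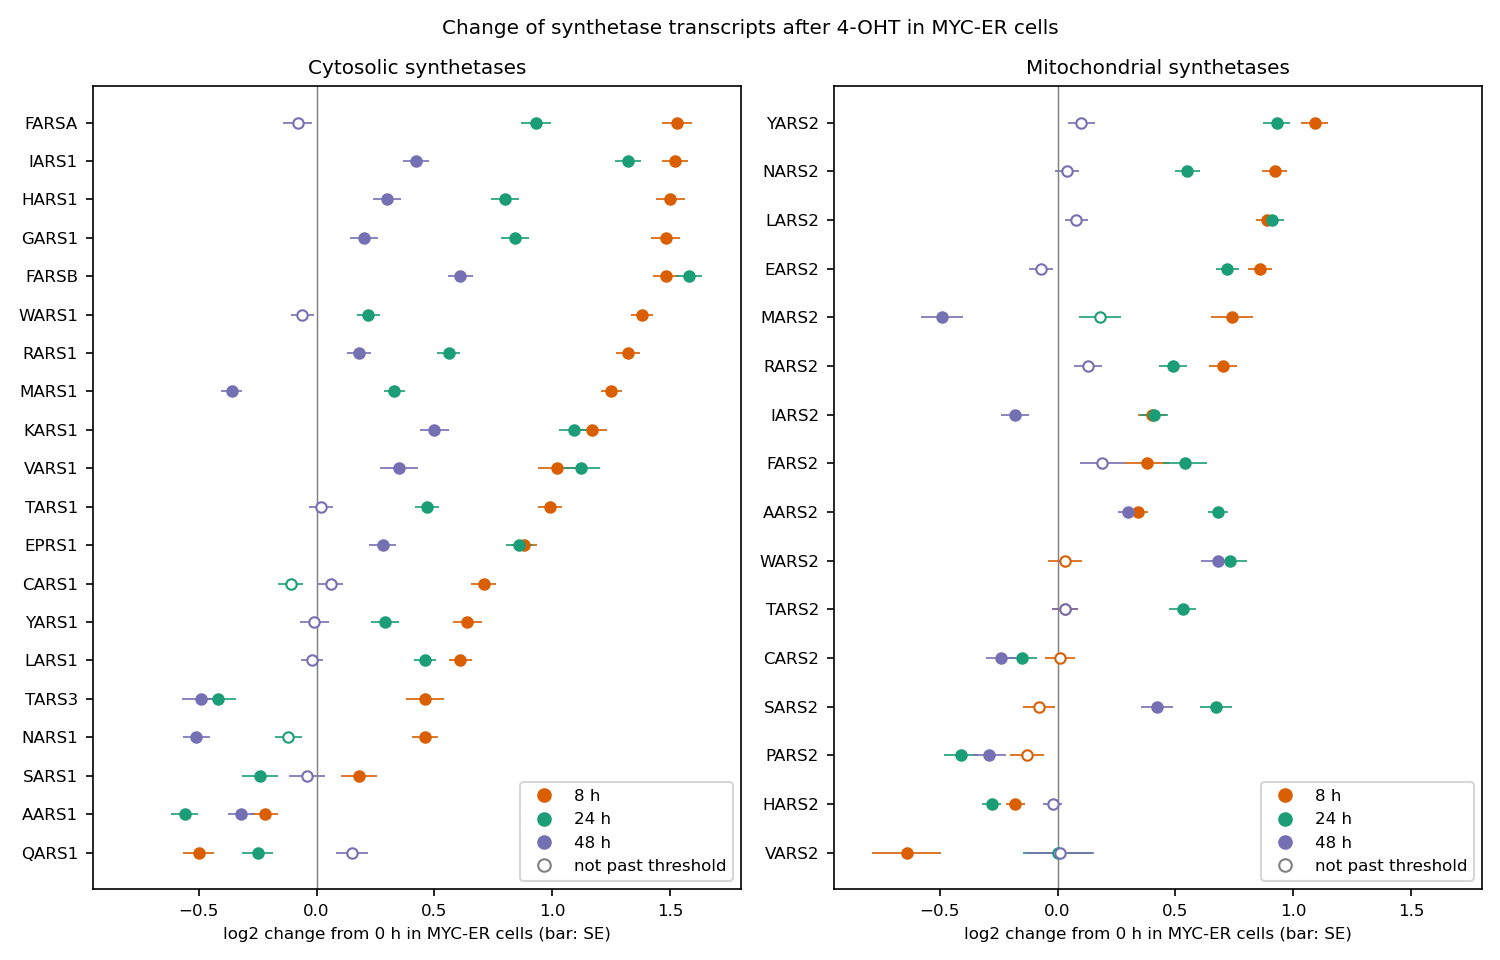
Log2 change from 0 h of synthetase transcripts in MYC-ER cells at 8, 24 and 48 h (1 of each set is not plotted, points, with the standard error as a bar), cytosolic enzymes on the left and mitochondrial on the right, ordered by the 8 h value; open points did not pass an adjusted p of 0.05. At 8 h all plotted cytosolic transcripts but QARS1 and AARS1 lie above 0, and by 48 h the median of the full set is 0.06.

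The largest cytosolic rises at 8 h belonged to enzymes for phenylalanine, isoleucine and histidine. FARSA, the catalytic subunit of the cytosolic phenylalanine enzyme (chr19:12922479-12933711, minus strand), read 61.8, 60.3 and 62.9 CPM at 0 h and 181, 173 and 182 at 8 h, for a log2 shift of 1.53 (standard error 0.0638, adjusted p 3.91e-15). FARSB, the other subunit of the same enzyme (chr2:222566899-222656092, minus strand), read 35.2, 38.9 and 37.8 CPM and then 104, 105 and 104, for a log2 shift of 1.48 (standard error 0.055, adjusted p 5.84e-16). The 2 subunits, made from genes on chromosomes 19 and 2, thus moved by nearly the same amount, and for both the groups lay far apart. IARS1, the isoleucine enzyme of the multi-synthetase complex (chr9:92210207-92293697, minus strand), read 164, 173 and 169 CPM at 0 h and 479, 484 and 492 at 8 h, for a log2 shift of 1.52 (standard error 0.056, adjusted p 4.94e-16). HARS1 read 84.6, 91.3 and 93.5 CPM and then 257, 246 and 258, for a log2 shift of 1.5 (standard error 0.0608, adjusted p 2.56e-15). In all 4 genes each 8 h library exceeded each 0 h library. The other 15 rises ran from 0.18 for SARS1 to 1.48 for GARS1, and included WARS1 at 1.38, RARS1 at 1.32, MARS1 at 1.25 and KARS1 at 1.17. The SARS1 rise (adjusted p 0.0370) was the weakest and missed the threshold in 4 of the other fits, for example 0.04 (adjusted p 0.623) under upper-quartile scaling.

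QARS1 and AARS1 were the cytosolic enzymes that went the other way at 8 h. QARS1 charges glutamine tRNA in the multi-synthetase complex (chr3:49095932-49104757, minus strand). It read 169, 177 and 188 CPM at 0 h and 126, 120.0 and 131 at 8 h, for a log2 shift of -0.50 (standard error 0.0666, adjusted p 8.21e-07). AARS1, the alanine enzyme (chr16:70252298-70289506, minus strand), read 141, 144 and 145 CPM and then 126, 120.0 and 122, for a log2 shift of -0.22 (standard error 0.0562, adjusted p 0.00149). All 8 h libraries of both genes lay below all 0 h libraries. The promoter windows of AARS1, CARS1, IARS1, MARS1 and TARS1 hold the same TTGCATCA letters, and that of NARS1 holds them on the other strand. The part of these letters in the changes was not tested.

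**Figure D2:**
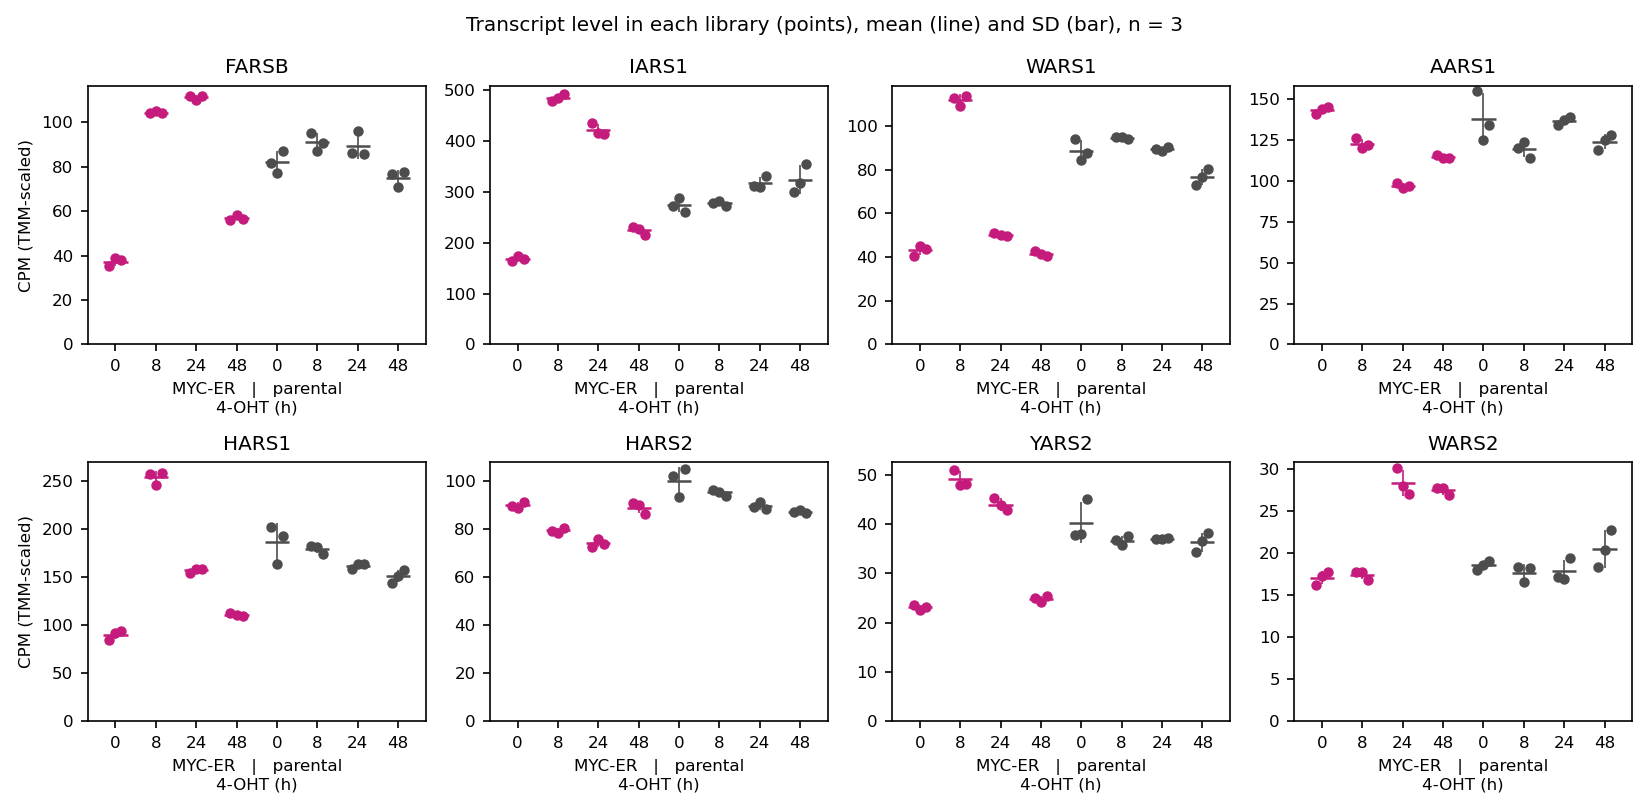
Level in CPM of 8 synthetase transcripts in each library (points), with the group mean (line) and SD (bar, n = 3), for MYC-ER cells (pink) and parental cells (grey) at 0, 8, 24 and 48 h of 4-OHT. HARS1 at 8 h reads 246 to 258 CPM in MYC-ER cells while its neighbour HARS2 reads 78.4 to 80.6.

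Of the mitochondrial enzymes at 8 h, YARS2, the tyrosine enzyme (chr12:32746544-32755897, minus strand), rose most. It read 23.6, 22.6 and 23.2 CPM at 0 h and 51.1, 48 and 48.2 at 8 h, for a log2 shift of 1.09 (standard error 0.0576, adjusted p 2.46e-13). NARS2, the asparagine enzyme (chr11:78435968-78574864, minus strand), read 19.4, 19.8 and 20.1 CPM and then 36.9, 37.9 and 37.6, for a log2 shift of 0.92 (standard error 0.0523, adjusted p 7.65e-13). In both genes each 8 h library lay above every 0 h library.

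HARS2 and VARS2 fell at 8 h. HARS2 read 89.7, 88.8 and 91.3 CPM at 0 h and 79.3, 78.4 and 80.6 at 8 h, for a log2 shift of -0.18 (standard error 0.0403, adjusted p 0.000487), while HARS1 across the 84-base interval rose. With each library's trend on GC content removed, the HARS2 value was -0.07 (adjusted p 0.108) and no longer passed. Of the annotated exon bases of HARS2, 11.7% are shared with HARS1 on the opposite strand and 4.07% with ZMAT2 on the same strand. Whether strand was used in counting is not given, so reads of one gene may count toward the other. The part of these shared bases in the HARS1 and HARS2 values was not tested. VARS2, the mitochondrial valine enzyme (chr6:30914238-30926459, plus strand), read 40.9, 42.8 and 44.9 CPM and then 19.6, 27.7 and 35, for a log2 shift of -0.64 (standard error 0.147, adjusted p 0.000574). The 8 h libraries of VARS2 were all lower but spread widely, and 22.0% of its annotated exon bases are shared with GTF2H4 on the same strand, so its counts are uncertain. The enzymes that did not pass were WARS2 (0.03), TARS2 (0.03), CARS2 (0.01), SARS2 (-0.08) and PARS2 (-0.13). SARS2 shares 46.2% of its exon bases with a neighbouring annotated gene on the same strand and is uncertain throughout.

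At 24 h 27 synthetases were higher than at 0 h, 7 were lower and 4 did not pass, against 30.4% of all genes higher and 31.2% lower. The median was 0.51 over the 38, 0.47 over the cytosolic and 0.54 over the mitochondrial enzymes, beside -0.02 over all genes. Cytosolic enzymes counted 15 higher and 4 lower, and mitochondrial enzymes 12 higher and 3 lower. FARSB led with 112, 110.0 and 112 CPM, for a log2 shift of 1.58 (standard error 0.0551, adjusted p 2.35e-16). IARS1 read 435, 415 and 413 CPM, for a log2 shift of 1.32 (standard error 0.0557, adjusted p 6.26e-15). VARS1, the cytosolic valine enzyme (chr6:31777518-31795752, minus strand), went from 102, 103 and 107 CPM at 0 h to 233, 230.0 and 218, for a log2 shift of 1.12 (standard error 0.0807, adjusted p 5.52e-11). These 3 stayed well clear of their 0 h libraries. KARS1, the lysine enzyme of both compartments (chr16:75627724-75647665, minus strand), went from 136, 145 and 145 CPM to 310.0, 304 and 297, for a log2 shift of 1.09 (standard error 0.0631, adjusted p 1.33e-12).

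Among mitochondrial enzymes at 24 h, YARS2 read 45.3, 43.8 and 42.8 CPM, for a log2 shift of 0.93 (standard error 0.0574, adjusted p 4.52e-12). LARS2, the leucine enzyme (chr3:45388576-45549407, plus strand), went from 35.8, 36.3 and 35.8 CPM at 0 h to 70.1, 67.8 and 64.6, for a log2 shift of 0.91 (standard error 0.0485, adjusted p 3.64e-13). WARS2, AARS2, SARS2 and TARS2 were also up at 24 h, at 0.73, 0.68, 0.67 and 0.53, of which AARS2 alone had passed at 8 h (0.34).

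The 7 lower transcripts at 24 h included AARS1, which read 98.6, 95.8 and 96.8 CPM, for a log2 shift of -0.56 (standard error 0.0563, adjusted p 1.44e-08). QARS1 read 151, 147 and 150.0 CPM, for a log2 shift of -0.25 (standard error 0.0665, adjusted p 0.00221). SARS1 went from 170.0, 181 and 180.0 CPM to 151, 148 and 151, for a log2 shift of -0.24 (standard error 0.0757, adjusted p 0.00916). In each of the 3 no 24 h library reached a 0 h library. TARS3 went from 16.9, 17.4 and 18.5 CPM to 14.1, 12.6 and 12.7, for a log2 shift of -0.42 (standard error 0.079, adjusted p 7.55e-05), and is a close relative of TARS1 whose reads may be split between the 2. Of the mitochondrial enzymes HARS2 read 72.4, 75.8 and 74 CPM, for a log2 shift of -0.28 (standard error 0.0403, adjusted p 2.91e-06). PARS2 went from 11.7, 11 and 10.8 CPM to 8.14, 8.49 and 8.47, for a log2 shift of -0.41 (standard error 0.0708, adjusted p 2.71e-05), on low counts for a synthetase. CARS2, the cysteine enzyme, went from 131, 126 and 136 CPM to 118, 120.0 and 117, for a log2 shift of -0.15 (standard error 0.0627, adjusted p 0.0492). That CARS2 call sat at the threshold and was lost in 5 of the other fits and in 21 of the 24 that left out 1 library.

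At 48 h 13 synthetases were higher than at 0 h, 8 were lower and 17 did not pass, against 23.4% and 20.7% of all genes, a balance that became 26 higher and 5 lower when library size alone set the scale. Of all genes called, 53% were higher, and 73.8% with that scale, which shifts the median gene by 0.162. The median was 0.05, beside 0.03 over all genes, with 0.06 for the cytosolic and 0.04 for the mitochondrial set. FARSB still read 56.2, 58.3 and 56.4 CPM, for a log2 shift of 0.61 (standard error 0.0542, adjusted p 5.45e-09). KARS1 read 202, 205 and 199 CPM, for a log2 shift of 0.50 (standard error 0.0626, adjusted p 8.09e-07). WARS2, the mitochondrial tryptophan enzyme (chr1:119031216-119140672, minus strand), went from 16.2, 17.3 and 17.7 CPM at 0 h to 27.7, 27.8 and 26.9, for a log2 shift of 0.68 (standard error 0.072, adjusted p 7.57e-08). WARS2 differs from most others in that its 8 h libraries (17.8, 17.7 and 16.8 CPM) overlapped those of 0 h. SARS2 went from 24.6, 25.8 and 25.6 CPM to 34.7, 33 and 33.8, for a log2 shift of 0.42 (standard error 0.0676, adjusted p 2.63e-05).

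Enzymes for methionine and asparagine were among those below their 0 h level at 48 h. MARS1, the cytosolic methionine enzyme (chr12:57488068-57516652, plus strand), went from 71.9, 73.1 and 73.8 CPM to 58.8, 54.8 and 56.5, for a log2 shift of -0.36 (standard error 0.0433, adjusted p 4.72e-07). MARS2, its mitochondrial counterpart (chr2:197705369-197708395, plus strand), went from 18.4, 19.3 and 18.1 CPM to 13, 13.7 and 12.9, for a log2 shift of -0.49 (standard error 0.089, adjusted p 9.84e-05). NARS1, the cytosolic asparagine enzyme (chr18:57600656-57621836, minus strand), went from 195, 206 and 204 CPM to 139, 145 and 140.0, for a log2 shift of -0.51 (standard error 0.057, adjusted p 1.68e-07). All 3 had risen at 8 h, and their 48 h libraries lay below every library of the 3 earlier groups. TARS3 read 12.3, 12.5 and 12.8 CPM, for a log2 shift of -0.49 (standard error 0.079, adjusted p 2.52e-05). AARS1 read 116, 114 and 114 CPM, for a log2 shift of -0.32 (standard error 0.0562, adjusted p 6.18e-05), and was the cytosolic gene lower than at 0 h at all 3 times.

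Between 8 and 24 h 23 synthetases fell and 7 rose, against 27.1% and 28.4% of all genes, but with library size alone as the scale, which shifts the median gene by 0.206, 15 fell and 16 rose. Of all genes called, 51.2% rose, 67.8% with that scale and 59.7% with upper-quartile scaling, under which 16 synthetases fell and 12 rose. The cytosolic median was -0.42 and the mitochondrial 0.01. WARS1, the cytosolic tryptophan enzyme (chr14:100333790-100376327, minus strand), went from 113, 109 and 114 CPM at 8 h to 51.2, 50.1 and 49.7 at 24 h, for a log2 shift of -1.15 (standard error 0.0477, adjusted p 8.69e-15). MARS1 went from 177, 167 and 177 CPM to 92.3, 92 and 90.7, for a log2 shift of -0.92 (standard error 0.0435, adjusted p 7.64e-14). TARS3 went from 25.1, 21.8 and 25.5 CPM to the 24 h values above, for a log2 shift of -0.88 (standard error 0.0793, adjusted p 3.7e-09). The 24 h libraries of all 3 lay below every 8 h library. FARSB, EPRS1, VARS1 and KARS1 did not pass between these times, at 0.09, -0.01, 0.10 and -0.08. With library size alone EPRS1 (0.19) and KARS1 (0.13) passed as higher at 24 h than at 8 h.

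Between 24 and 48 h 28 fell and 5 rose, against 25.5% and 28.2% of all genes, with medians of -0.45 for cytosolic and -0.38 for mitochondrial enzymes. Without MYC-ER 48 h replicate 2, 3 rose. FARSA went from 125, 118 and 111 CPM at 24 h to 59.7, 58.7 and 56.6, for a log2 shift of -1.02 (standard error 0.0631, adjusted p 9.81e-12), and its 48 h libraries lay just under those of 0 h without passing the threshold against them. FARSB changed by -0.96 with standard error 0.0542 and adjusted p 1.98e-12. The 5 that rose were QARS1 (0.40), HARS2 (0.26), AARS1 (0.24), SARS1 (0.20) and CARS1 (0.16). All but CARS1 had been called lower at 24 h than at 0 h, and CARS1 stood at -0.11 there (adjusted p 0.0828).

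By group mean, 16 of the 21 cytosolic enzymes were highest at 8 h among the 4 MYC-ER groups. Another 3 peaked at 24 h, 1 at 48 h and 1 in untreated cells. Of the 17 mitochondrial enzymes 6 peaked at 8 h, 8 at 24 h, 1 at 48 h and 2 before treatment. Over the 4 times in order, cytosolic transcripts summed to 2520 ± 85.7 (SD, n = 3), 4570 ± 65.2, 3710 ± 73.9 and 2700 ± 43.2 CPM. Mitochondrial transcripts summed to 1000 ± 9.93, 1290 ± 14.2, 1340 ± 23.1 and 971 ± 14.4 CPM. The cytosolic minus mitochondrial mean log2 CPM was 1.44 ± 0.0293, 1.94 ± 0.0262, 1.44 ± 0.0161 and 1.45 ± 0.00745 in the same order. That excess of the cytosolic set was therefore larger at 8 h and back at the 0 h value by 24 h, and it compares the 2 sets within each library. In parental cells it stayed between 1.61 and 1.68 by group mean. These sums and differences describe the members and carry no test.

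**Figure D3:**
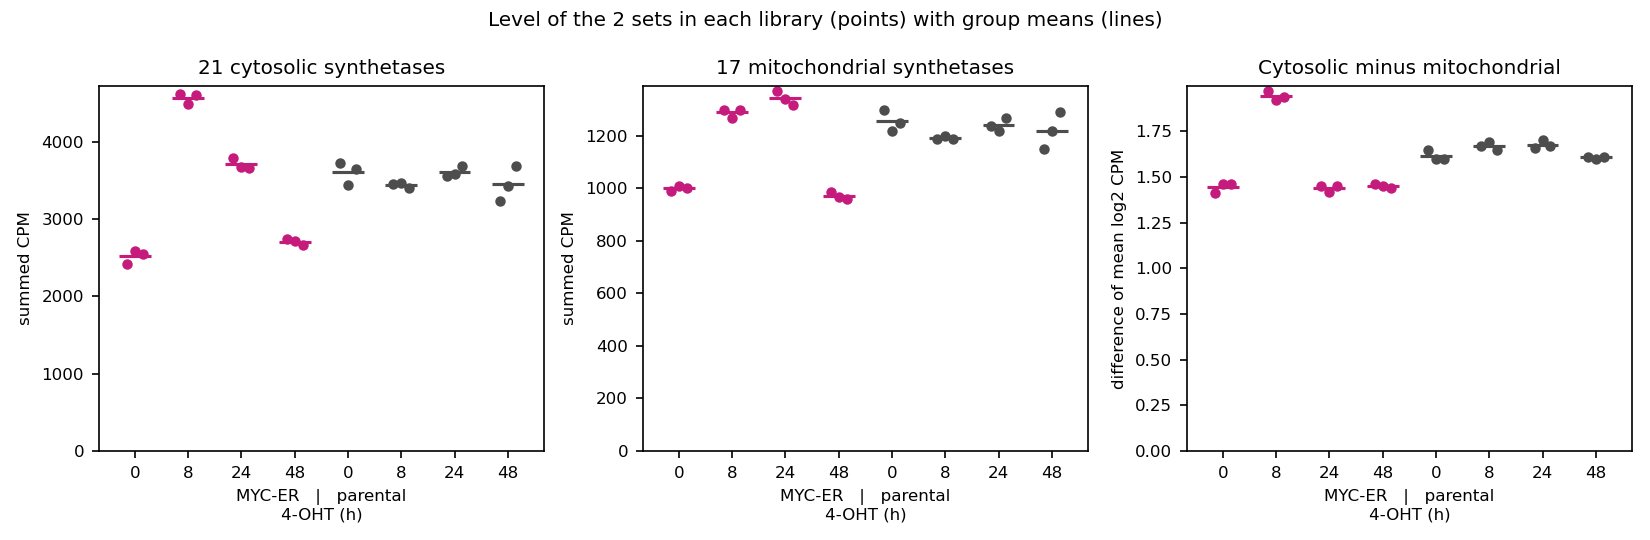
Summed CPM of the 21 cytosolic and of the 17 mitochondrial synthetases and the difference of their mean log2 CPM in each library (points), with group means (lines), for MYC-ER (pink) and parental (grey) cells by hours of 4-OHT. The MYC-ER cytosolic sum goes from a mean of 2520 CPM at 0 h to 4570 at 8 h, and the difference from 1.44 to 1.94.

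The lines differed before any 4-OHT. At 0 h 30 synthetases stood lower in the MYC-ER line, 3 were higher and 5 did not pass, against 32.7% and 31.6% of all genes, with a median of -0.46 beside 0.00. Without parental 0 h replicate 1, 5 were higher. VARS1 read 102, 103 and 107 CPM in MYC-ER and 289, 236 and 293 in parental cells, for a log2 gap of -1.39 (standard error 0.0811, adjusted p 1.8e-12). GARS1, the glycine enzyme of both compartments (chr7:30594735-30634033, plus strand), read 69.2, 72.1 and 75.6 CPM and 172, 146 and 166, for a log2 gap of -1.16 (standard error 0.0594, adjusted p 1.97e-13). FARSB read 35.2, 38.9 and 37.8 CPM and 81.8, 77.4 and 87.2, for a log2 gap of -1.14 (standard error 0.0546, adjusted p 6.05e-14). No library of one line reached the other in these genes. The higher ones included TARS3 (0.89) and PARS2 (0.43).

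By 8 h the balance had turned, with 26 synthetases higher in MYC-ER than in parental cells and 4 lower, against 23.1% and 25.5% of all genes, and a median of 0.29. These comparisons of the lines after 4-OHT were added after the data had been seen. TARS3 read 25.1, 21.8 and 25.5 CPM in MYC-ER and 9.45, 8.81 and 8.63 in parental cells, for a log2 gap of 1.43 (standard error 0.0805, adjusted p 3.03e-12). IARS1 read 479, 484 and 492 CPM against 278, 283 and 272, for a log2 gap of 0.81 (standard error 0.0551, adjusted p 7.43e-11). VARS2 read 19.6, 27.7 and 35 CPM against 45.5, 44.1 and 50.4, for a log2 gap of -0.77 (standard error 0.147, adjusted p 0.000171). The lines were thus separate in all 3, with VARS2 on the other side of 0.

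At 24 h 16 were higher and 9 lower (23.5% and 25.8% of all genes), and with library size alone as the scale 21 and 8. Of all genes called, 47.6% were higher, 60.7% with library size alone and 58.4% with upper-quartile scaling. WARS1 read 51.2, 50.1 and 49.7 CPM in MYC-ER and 89.6, 88.8 and 90.5 in parental cells, for a log2 gap of -0.83 (standard error 0.0474, adjusted p 3.44e-12). WARS2, its mitochondrial counterpart, read 30.1, 28 and 27.1 CPM against 17.2, 16.9 and 19.4, for a log2 gap of 0.67 (standard error 0.072, adjusted p 8.27e-08), so the 2 tryptophan enzymes differed between the lines in opposite directions. MARS1 read 92.3, 92 and 90.7 CPM against 138, 143 and 138, for a log2 gap of -0.61 (standard error 0.0433, adjusted p 1.35e-10).

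At 48 h 22 were again lower in MYC-ER and 6 higher, against 29.4% and 27.3% of all genes, and with library size alone 19 and 11. Of all genes called, 48.2% were higher, 59.8% with library size alone and 59.7% with upper-quartile scaling. Without parental 48 h replicate 1, 3 were higher. MARS1 read 58.8, 54.8 and 56.5 CPM against 127, 125 and 132, for a log2 gap of -1.17 (standard error 0.0438, adjusted p 2.86e-15). MARS2 read 13, 13.7 and 12.9 CPM against 23.1, 22.5 and 27.6, for a log2 gap of -0.89 (standard error 0.0893, adjusted p 2.28e-08). WARS1 read 42.6, 41.3 and 40.5 CPM against 73, 76.5 and 80.4, for a log2 gap of -0.89 (standard error 0.0475, adjusted p 1.03e-12). In these 3 genes every MYC-ER library lay below every parental library.

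In parental cells at 8 h 4 synthetases were higher, 12 lower and 22 did not pass (15% and 16% of all genes), at 24 h 6, 13 and 19 (21.2% and 21.7%), and at 48 h 5, 18 and 15 (20.4% and 20.1%). Medians were -0.08, -0.07 and -0.14, beside 0.00, -0.03 and 0.00 over all genes. When the fit held just the pair of groups in question, 1, 2 and 3 synthetases were called lower, and 0, 3 and 0 higher. With edgeR's unadjusted p under 0.05 those 2 counts of 0 became 3 and 4, and DESeq2 called 5 and 5. The count lower depended on single 0 h libraries: without parental 0 h replicate 2 it was 19, 19 and 22, and the lowest counts were 8 at 8 h (without replicate 1 of 0 h) and 8 and 12 at 24 and 48 h (without replicate 3 of 0 h). Without parental 8 h replicate 1, 8 were higher at 48 h.

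VARS2 in parental cells read 77, 51.8 and 73.4 CPM before 4-OHT, 45.5, 44.1 and 50.4 after 8 h, 53.1, 46.6 and 44.6 after 24 h and 37, 43.4 and 42.9 after 48 h. Its log2 changes, in that order, were -0.53 with standard error 0.146 and adjusted p 0.0087, -0.49 with standard error 0.146 and adjusted p 0.00963, and -0.71 with standard error 0.146 and adjusted p 0.000522. Replicate 2 of 0 h lay closest to the treated libraries, and below 1 of the 24 h libraries, so those groups overlap. SARS2 read 42.4, 35 and 44 CPM before 4-OHT, 30.0, 30.0 and 29.7 after 8 h, 29.3, 25.9 and 28.6 after 24 h and 28.5, 32.8 and 31 after 48 h. Its log2 changes were -0.43 with standard error 0.0675 and adjusted p 7.51e-05, -0.53 with standard error 0.0676 and adjusted p 4.83e-06 and -0.39 with standard error 0.0674 and adjusted p 0.000108, and no treated library reached a 0 h library. FARS2, the mitochondrial phenylalanine enzyme, read 26.5, 18.6 and 26 CPM at 0 h and 18.2, 17.9 and 19.1 at 8 h, for a log2 shift of -0.37 (standard error 0.0944, adjusted p 0.00572), with overlapping groups. FARSA read 130.0, 111 and 132 CPM at 0 h and 88.1, 96.9 and 103 at 48 h, for a log2 shift of -0.38 (standard error 0.0624, adjusted p 7.93e-05).

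The parental changes ran with the GC content of the transcripts, whose part in them was not tested beyond the fit with GC trends removed. Over the 38 genes, which share the same libraries, Spearman's rho between GC content and log2 change was -0.73, -0.74 and -0.68 for the 3 times in order, as a description across genes. Over all 21724 genes with a GC value it was -0.39, -0.44 and -0.44. In MYC-ER cells it was -0.30, -0.17 and -0.17 over the synthetases and 0.00, -0.04 and 0.03 over all genes. SARS2 (61.4% GC), FARSA (61.6%) and VARS2 (59.2%) were among the parental falls. With each library's GC trend removed, 3, 5 and 1 synthetases were higher and 8, 9 and 14 lower at the 3 times. FARSA then rose at 24 h (0.14, adjusted p 0.0301) where it had fallen by 0.22, and AARS2 did likewise (0.15, adjusted p 0.0261). SARS2 at 8 h, CARS2 and SARS2 at 24 h, and VARS2 at 48 h were among the parental calls kept in every fit run.

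**Figure D4:**
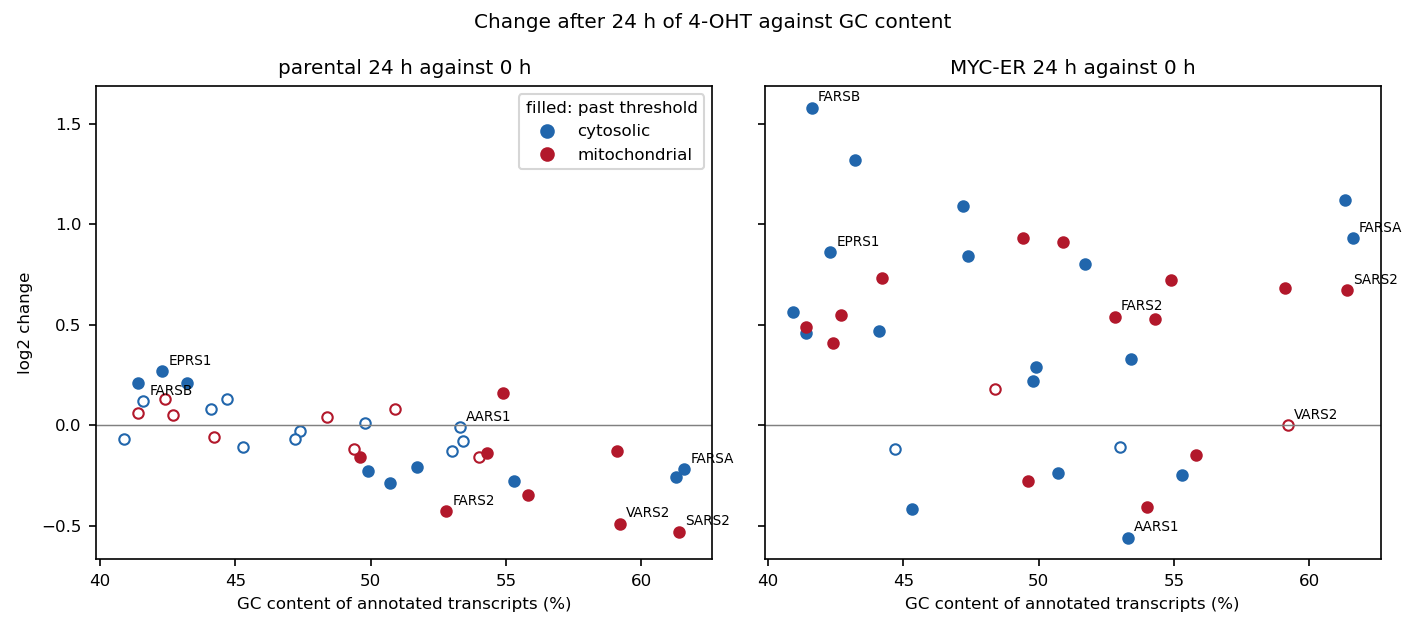
Log2 change after 24 h of 4-OHT against the GC content of the annotated transcripts for the synthetases (1 of each set is not plotted), in parental cells on the left and MYC-ER cells on the right; filled points passed an adjusted p of 0.05. In parental cells the points descend with GC content (rho -0.74 over all 38), with SARS2 lowest at -0.53.

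The difference between the lines in the change from 0 h was tested as an interaction, the change in MYC-ER cells less that in parental cells, which uses the 0 h libraries of both lines. At 8 h it was above 0 for 32 synthetases and below 0 for 0, against 27.3% and 27.8% of all genes, with a median of 0.67 beside -0.08. Below 0, edgeR's unadjusted p under 0.05 and DESeq2 also gave 0. The count was 2 without parental 0 h replicate 3, and 2 with library size alone or upper-quartile scaling. FARSA (1.62 with standard error 0.0887 and adjusted p 1.25e-12), GARS1 (1.58 with standard error 0.0833 and adjusted p 7.19e-13) and HARS1 (1.55 with standard error 0.0846 and adjusted p 1.17e-12) led. In parental cells the 8 h libraries read 118, 120.0 and 115 CPM for FARSA, 151, 152 and 150.0 for GARS1 and 182, 181 and 174 for HARS1, each within the range of 0 h. GARS1 in MYC-ER cells had read 204, 196 and 206 CPM. Those without a call included AARS1 (-0.01), HARS2 (-0.11), QARS1 (-0.19), VARS2 (-0.11) and WARS2 (0.10), so the 4 falls in MYC-ER cells at 8 h were not shown to differ from the parental values.

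At 24 h the interaction was above 0 for 26 and below 0 for 4 (27.7% and 26.8% of all genes), with a median of 0.51 beside 0.02. FARSB (1.45 with standard error 0.0765 and adjusted p 6.33e-13), VARS1 (1.38 with standard error 0.113 and adjusted p 9.41e-10) and SARS2 (1.2 with standard error 0.0956 and adjusted p 6.1e-10) led. In MYC-ER cells SARS2 read 39.2, 41.4 and 40.2 CPM at 24 h, above its 0 h libraries, where the parental libraries had gone down. Below 0 were AARS1 (-0.55), TARS3 (-0.32), NARS1 (-0.26) and PARS2 (-0.25), and without MYC-ER 24 h replicate 2 there were 2. AARS1 in parental cells read 155, 125 and 134 CPM at 0 h and 134, 137 and 139 at 24 h, which overlap. At 48 h the interaction was above 0 for 19 and below 0 for 6 (23.6% and 21.4%), with a median of 0.21 beside 0.07, and with library size alone 24 and 3. Of all genes called, 52.5% were above 0, and 63.5% with library size alone. With only the groups compared, 13 synthetases lay above 0 and 4 below 0. SARS2 (0.81 with standard error 0.0955 and adjusted p 6.11e-07), FARSB (0.74 with standard error 0.0763 and adjusted p 9.48e-08) and VARS2 (0.72 with standard error 0.206 and adjusted p 0.0066) led. VARS2 in MYC-ER cells read 44.2, 41.9 and 43.5 CPM at 48 h, close to its 0 h level.

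Of the 8 enzymes of the multi-synthetase complex 7 rose and QARS1 fell at 8 h in MYC-ER cells, with a median of 1.02, against 32.2% of all genes higher and 35.4% lower. At 24 h again 7 were higher and 1 lower (median 0.53), against 30.4% and 31.2%. At 48 h 5 were higher and 1 lower (0.20), against 23.4% and 20.7%, a time at which library size alone took the higher calls among all 38 from 13 to 26. The scaffolds moved with them to different extents at 8 h. EEF1E1 averaged 11.3 ± 0.734 CPM at 0 h and 31.1 ± 1.26 at 8 h, a log2 change of 1.46 (SE 0.0814, adjusted p 5.70e-13). AIMP2 averaged 19.0 ± 0.311 and 42.6 ± 1.40 CPM, a change of 1.17 (SE 0.0647, adjusted p 5.34e-13). AIMP1, which was the most abundant of the 3 in CPM, averaged 85.3 ± 4.24 and 97.2 ± 4.46, a change of 0.19 (SE 0.0507, adjusted p 0.00244). Before 4-OHT the log2 gap of MYC-ER from parental cells was -1.14 for EEF1E1, -1.08 for AIMP2 and 0.09 for AIMP1, which did not pass. At 48 h AIMP2 was below its 0 h level (-0.34, adjusted p 0.000158), and AIMP1 and EEF1E1 did not pass.

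By structural class, the cytosolic enzymes counted 8 of 9 class I enzymes higher at 8 h (median 1.02) and 10 of 11 class II (median 0.99), against 32.2% of all genes. EPRS1, which joins a class I glutamate and a class II proline enzyme in 1 chain, was left out of both and rose by 0.88 at 8 h. At 24 h 7 of 9 and 7 of 11 were higher, with medians of 0.33 and 0.50, against 30.4% of all genes.

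Of the 12 cytosolic synthetases known as ATF4 targets 11 rose and AARS1 fell at 8 h (median 0.79). Of the 9 others 8 rose and 1 fell (median 1.17). The same 12 had a median of 0.31 at 24 h and -0.01 at 48 h, and the other 9 of 0.80 and 0.22. A reference list of 12 genes outside the synthetases, ATF4 and targets of it, had 4 higher, 5 lower and a median of -0.20 at 8 h, near the 32.2% and 35.4% of all genes. At 24 h 5 of the list were higher and 6 lower (median -0.15), against 30.4% and 31.2% of all genes. By 48 h 4 were higher and 4 lower (-0.06), against 23.4% and 20.7%. ATF4, counted in that list, fell at 8 h (-0.29, adjusted p 0.000897), from 522 ± 16.0 to 428 ± 17.9 CPM. In parental cells it averaged 431 ± 60.3 CPM at 0 h and 358 ± 5.91 at 8 h. ATF4 protein and its activity were not measured in these libraries. TRIB3, a feedback inhibitor in the same response, rose by 3.88 (SE 0.102, adjusted p 2.17e-18), from 8.16 ± 0.137 to 120.0 ± 8.55 CPM. In parental cells TRIB3 averaged 113 ± 16.1 CPM at 0 h and 114 ± 5.15 at 8 h. Its log2 gap between the lines at 0 h was -3.79, so the rise brought MYC-ER cells to about the parental level. DDIT3, a stress transcription factor whose exons overlap those of MARS1 on the opposite strand, fell by 2.05 (adjusted p 4.96e-12). It had started above parental cells, with a log2 gap of 1.37 between the lines at 0 h. WARS1 is also an interferon-induced gene, and of 9 interferon reference genes 2 rose and 6 fell at 8 h (median -0.72), beside the same shares of all genes, while WARS1 rose.

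Among 18 partners in charging and delivery, 9 rose and 5 fell at 8 h (median 0.18), against 32.2% of all genes higher and 35.4% lower. EEFSEC, which brings selenocysteine tRNA to the ribosome, rose by 1.07 (adjusted p 3.33e-09), and SEPSECS, the last enzyme in making that charged tRNA, fell by 1.08 (adjusted p 1.04e-08). EEF1A1, the factor that delivers charged tRNA in the cytosol, fell by 0.84 (adjusted p 6.64e-10), whereas its mitochondrial counterpart TUFM rose by 0.42 (adjusted p 9.98e-05). Of 37 genes of tRNA maturation and export 33 rose and 1, TSEN34, fell at 8 h (median 0.84). At 24 h 24 were higher and 3 lower (0.41), against 30.4% and 31.2% of all genes. At 48 h 5 were higher and 14 lower (-0.12), against 23.4% and 20.7%. Library size alone shifts the median gene there by 0.162, more than that median. Against parental cells 1 of the 37 was higher and 29 lower before 4-OHT (median -0.65; 31.6% and 32.7% of all genes). At 8 h 21 were higher and 4 lower (0.25, against 23.1% and 25.5%), and at 48 h 1 and 34 (-0.62, against 27.3% and 29.4%). The 8 h interaction was above 0 for 32 (median 0.96), against 27.3% of all genes. The m1A58 methyltransferase subunit TRMT6 went from 42.5 ± 1.12 CPM at 0 h to 210.0 ± 7.83 at 8 h, a rise of 2.31 (SE 0.0450, adjusted p 2.50e-20), and to 27.3 ± 1.07 at 48 h.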

How the data were processed

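RNA from 24 samples was sequenced in paired reads of 150 bases, and whole-number counts per gene were deposited by the authors. The submitters' processing notes name Trimmomatic 0.39, STAR, StringTie 2.1.3b and GRCh38, with no role or order. If StringTie made the counts they are estimates from coverage, and whether strand was used is not given in the sources used here, nor is which 3 libraries shared a lane.

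Groups were taken from the labels. Genes with enough counts by edgeR's filter were kept (22158), scaled by TMM and fitted over all 24 libraries in 8 groups with edgeR 4.0.16 (R 4.3.3), using the quasi-likelihood test and Benjamini-Hochberg adjustment over all genes tested. An adjusted p of 0.05 was the threshold for every call, and log2 CPM used a prior count of 2. Replicates varied with a biological coefficient of variation of 0.151 in common over genes. Replicate pairs differed by more than sampling noise (chi-square per degree of freedom 8.45 to 261). The labels do not say that replicates were separate cultures beyond wells, so p-values measure the spread between these samples, which may be technical.

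The members and lists were chosen with earlier results of these data known. Values in every library are given, by rule, for the 4 cytosolic and 3 mitochondrial members with the largest called change from 0 h in MYC-ER cells and those called against most of their set, and for the 3 largest in every other comparison, where the higher group averaged 10 CPM or more. The comparisons of the lines at 8, 24 and 48 h were added after seeing the data. Alternatives were other scalings, other filters, DESeq2 1.42.0, only the groups compared, the replicate block, GC trends removed and each library left out. Protein sequences were not used here, and some results the naming rule would give are not reported here.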

Additional observations from a re-analysis of the deposited data

Results flagged for a closer look

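The values here are differences between the lines in the log2 change from 0 h (MYC-ER minus parental), tested as interactions with edgeR's quasi-likelihood test and Benjamini-Hochberg adjustment, and each passed an adjusted p of 0.05. At 8 h 32 of the 38 synthetases passed, led by FARSA (1.62), GARS1 (1.58) and HARS1 (1.55). Of all genes, 27.3% passed above 0 and 27.8% below 0 at that time. At 24 h 30 passed, against 27.7% of all genes above 0 and 26.8% below 0. FARSB (1.45), VARS1 (1.38) and SARS2 (1.2) led above 0, and AARS1 (-0.55), TARS3 (-0.32), NARS1 (-0.26) and PARS2 (-0.25) lay below it. At 48 h 25 passed, against 23.6% of all genes above 0 and 21.4% below 0. Of those 25 calls, 13 were kept in every fit run. SARS2 (0.81), FARSB (0.74) and VARS2 (0.72) led above 0. Below 0 were NARS1 (-0.62), TARS3 (-0.61), MARS2 (-0.57), IARS2 (-0.30), NARS2 (-0.22) and MARS1 (-0.16).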

How the results depend on the processing

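With library size alone as the scale, 26 synthetases were higher and 5 lower in MYC-ER cells at 48 h, 16 rose and 15 fell from 8 to 24 h, 11 were higher in parental cells at 48 h, 11 were higher in MYC-ER than in parental cells at 48 h, and 2, 1 and 3 interactions lay below 0 at 8, 24 and 48 h. Upper-quartile scaling gave 12 rises from 8 to 24 h, 11 higher in the lines at 48 h and 2 interactions below 0 at 8 h, and so did (2) a filter of at least 10 counts in every library. With GC trends removed, 3 rose from 24 to 48 h, 1 was higher in parental cells at 48 h, 3 were higher in the lines at 48 h and 1 interaction lay below 0 at 8 h. With only the groups compared, 11 rose from 8 to 24 h, 0, 3 and 0 were higher and 1, 2 and 3 lower in parental cells at 8, 24 and 48 h, and 2 interactions lay below 0 at 24 h. The 2 counts of 0 were 3 and 4 at edgeR's unadjusted p under 0.05 and 5 and 5 by DESeq2. Leaving out 1 library gave 3 to 5 rises from 24 to 48 h, 8 to 19 falls in parental cells at both 8 and 24 h, 4 to 8 rises there at 48 h, 3 to 5 higher in the lines at 0 h and 3 to 7 at 48 h, and 0 to 2 and 2 to 5 interactions below 0 at 8 and 24 h. Single values changed sign, or came to 0 at the 2 decimals given, from 8 to 24 h with library size alone, where CARS2 was 0.05, EARS2 0.07, EPRS1 0.19, HARS2 0.11 (adjusted p 0.0292 by edgeR), IARS1 0, KARS1 0.13, LARS1 0.05, RARS2 0 and YARS2 0.05, and with upper-quartile scaling, where HARS2 was 0. With GC trends removed, parental values changed sign for FARSB at 8 h (-0.04), for AARS2 (0.15), FARSA (0.14), LARS1 (-0.04), TARS2 (0.01) and VARS1 (0.10) at 24 h, and for AARS2 (0.04), EPRS1 (-0.03) and VARS1 (0.03) at 48 h. So did AARS2 between the lines at 48 h (-0.03) and the FARSA interaction at 48 h (-0.07). The causes were not tested. Calls kept in every fit numbered 31 of 33, 32 of 34 and 16 of 21 for the 3 times in MYC-ER cells. In parental cells they numbered 1 of 16, 3 of 19 and 1 of 23. From 8 to 24 h in MYC-ER cells 22 of 30 were kept, and from 24 to 48 h 31 of 33. Between the lines 27 of 33, 25 of 30, 23 of 25 and 22 of 28 were kept at 0, 8, 24 and 48 h. For the interactions the kept calls were 29 of 32, 27 of 30 and 13 of 25 at 8, 24 and 48 h. Same-numbered libraries did not deviate together (r -0.034 to 0.052, 0 of 12 contrasts over 0.1 throughout), so no effect shared by replicate number was seen. Whether same-numbered samples were handled together is not given in the sources used here, and these correlations cannot decide it. With a replicate block 29 synthetases rose and 4 fell at 8 h in MYC-ER cells. Depth did not limit the synthetases, whose lowest count was 946.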
